A study of Mus musculus and Rattus norvegicus with 30 samples.

Results

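Neonatal rat ventricular myocytes treated with siRNA against the nuclear receptors ERR alpha and ERR gamma were compared with control myocytes while both were exposed to the receptors' agonist. Of the 30 libraries of the series, 6 were compared here, taken by their labels: 3 of knockdown cells with 915 and 3 of scramble cells with 915. The knockdown cells carried 25 nM of siRNA against both Esrra (ERR alpha) and Esrrg (ERR gamma), and the scramble cells carried 25 nM of a non-targeting siRNA. Both groups received 915, which the labels call an agonist of all ERR family members, at 10 µM for 24 h, so the agonist is shared by the groups and only the siRNA differs. The other 6 rat libraries, knockdown cells with DMSO vehicle and scramble cells with DMSO vehicle (3 each), serve to show where the effect of the knockdown differed with 915. The cells came from hearts of rat pups of postnatal day 3, were pre-plated for 90 min to remove fibroblasts and were kept with 100 µM bromodeoxyuridine, which holds back dividing cells. They are a primary culture of immature ventricular muscle cells, both siRNAs act on the whole dish, and the labels do not say whether replicates are separate isolations, so every p-value below measures only the spread between these libraries. The comparison asks which transcripts need the receptors while an agonist is present.

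The estrogen-related receptors are orphan nuclear receptors that bind DNA at an extended nuclear receptor element and activate transcription without a known natural ligand. They draw on coactivators of the PGC-1 family and on the muscle protein PERM1. In heart muscle they are known as drivers of genes for fatty acid oxidation, the TCA cycle and the respiratory chain, and of part of the programme by which the newborn heart muscle cell takes on an adult metabolism and contractile apparatus.

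Library totals were 12013379 to 15085209 counts in knockdown cells with 915 and 15711947 to 18315341 counts in scramble cells with 915. Of 32545 genes listed, 15181 had enough counts to be tested. A gene is said below to rise or fall where its adjusted p was under 0.05 in a fit across all genes tested. Values are CPM (counts made comparable between libraries of unequal size), corrected for library composition, and changes are log2 fold changes of knockdown cells with 915 over scramble cells with 915, with their standard error (SE). Under this rule 5152 genes, or 33.9% of those tested, changed. Of these 2461 (16.2% of the genes tested) were higher and 2691 (17.7%) were lower in knockdown cells with 915. The groups did not overlap for 44.3% of the genes tested. Many genes named below were chosen by adjusted p or by separation of the groups, so a lack of overlap in them follows in part from that choice. At least 2-fold changes were found for 263 genes that rose and 343 that fell, and at least 4-fold changes for 25 that rose and 71 that fell. The median change over all genes tested was 0.03. The shares of 16.2% and 17.7% are the background against which each gene group below is read.

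Both targeted receptors were low in every knockdown library, and the third family member was low with them. Esrra (ENSRNOG00000021139, chromosome 1, 222168730 to 222178725 on the minus strand in build rn6), which encodes ERR alpha, had 12.7, 13.4 and 18.9 CPM in the 3 libraries of knockdown cells with 915, against 227, 228 and 229 CPM in scramble cells with 915. Esrrg (ENSRNOG00000002593, chromosome 13, 106463368 to 106683436 on the plus strand), which encodes ERR gamma, had 25.1, 16.1 and 22.2 CPM in knockdown cells with 915, against 263, 273 and 302 CPM in scramble cells with 915. Neither pair of groups overlapped. The log2 changes were −3.91 (SE 0.17, adjusted p = 1.15e-07) for Esrra and −3.73 (SE 0.11, adjusted p = 1.45e-12) for Esrrg. Esrrb (ENSRNOG00000010259, chromosome 6, 110410141 to 110455906 on the plus strand), which encodes ERR beta and is not a target by the genotype label, had 1.49, 1.49 and 1.78 CPM in knockdown cells with 915, against 5.68, 6.17 and 6.97 CPM in scramble cells with 915, a fall of 1.98 on the log2 scale (SE 0.26). The protocol also lists siRNAs against Esrrb and E2f1 among its reagents without saying which cells received them, so a direct and an indirect fall of Esrrb cannot be told apart. E2f1, a cell cycle transcription factor, averaged 15.5 ± 1.92 CPM in knockdown cells with 915 and 15.1 ± 2.59 CPM in scramble cells with 915 (SD, n = 3 each), overlapping groups with a change of 0.04 that did not pass (SE 0.13, adjusted p = 0.838). By the deposited FPKM, which are scaled for gene length and can be set side by side between genes, the median level in knockdown cells with 915 was 6.21 for Esrra, 4.18 for Esrrg and 1.15 for Esrrb. In scramble cells with 915 it was 105 for Esrra, 51.1 for Esrrg and 4.72 for Esrrb.

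**Figure D1:**
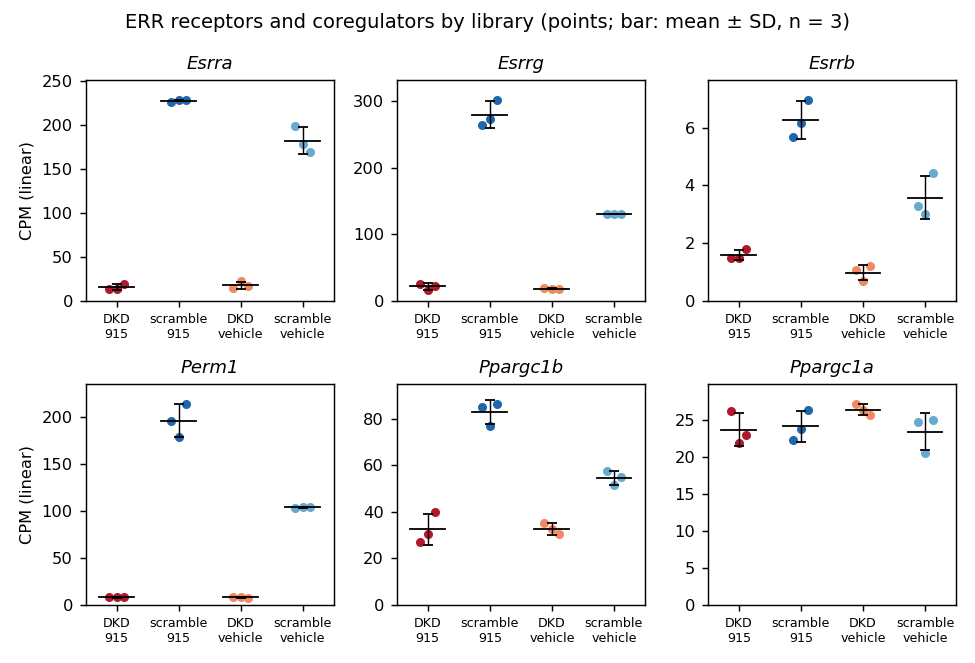
CPM (linear vertical axis) of 3 ERR receptor genes and 3 coregulator genes in each rat library, with knockdown cells (DKD) left of scramble cells for 915 and for vehicle; points are libraries, bars the mean ± SD of 3. Esrra, Esrrg, Esrrb, Perm1 and Ppargc1b lie lower in the knockdown cells with 915, while the Ppargc1a points of knockdown and scramble cells with 915 overlap between 21.8 and 26.4 CPM.

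Of the 12 receptor and coregulator genes, 6 fell and none rose, while 1 rose without knockdown replicate 3. Perm1 (ENSRNOG00000020244, chromosome 5, 173640780 to 173646073 on the plus strand), whose product acts with ERR and PGC-1 in muscle, had 7.71, 7.80 and 8.12 CPM in knockdown cells with 915, against 195, 179 and 214 CPM in scramble cells with 915, and changed by −4.64 (SE 0.09, adjusted p = 4.03e-23). Ppargc1b, which encodes the coactivator PGC-1 beta, had 26.9, 30.5 and 40.0 CPM in knockdown cells with 915, against 85.1, 76.8 and 86.3 CPM in scramble cells with 915, a change of −1.34 (SE 0.11). Ppargc1a, which encodes PGC-1 alpha, did not pass the test: it had 26.2, 21.8 and 23.0 CPM in knockdown cells with 915 and 22.2, 23.7 and 26.4 CPM in scramble cells with 915, and its change of −0.03 (SE 0.10, adjusted p = 0.857) turned to 0.02 without knockdown replicate 2 and to 0.04 without scramble replicate 3. The remaining member that fell, Ncoa2, a coactivator of many nuclear receptors, changed by −0.24 (SE 0.06).

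The letters TNAAGGTCA, the textbook element of the ERR family, were searched on both strands of promoters that run from 250 bases before to 50 bases after the start site. The sequences are RefSeq's mouse promoters of build GRCm38.p6, matched to rat genes by symbol for 9864 of the tested genes, so they describe mouse orthologues and not the rat loci. The element was present in 1.43% of the 27025 genes of the promoter table and in 0.892% of the matched tested genes. It was present in 0.982% of matched genes that fell (19 of 1934), 0.761% of those that rose (13 of 1709) and 0.9% of those not called. Among genes with a fall of at least 2-fold it was present in 4.15% (9 of 217), and among those with a rise of at least 2-fold in 1.41% (2 of 142). The narrower form TCAAGGTCA was present in 0.466% of genes of the table, in 0.31% of genes that fell and 0.351% of those that rose, and in 1.84% (4 of 217) of genes with a fall of at least 2-fold and 1.41% (2 of 142) of those with a rise of at least 2-fold. These shares are descriptions of short windows, with no test, and a window without the letters says nothing of receptor binding. Chosen after their values were seen, the 9 genes with a match and a fall of at least 2-fold are Rilp (−2.67), Ptprh (−2.22), Tpi1 (−1.95), Myh7b (−1.76), Sdhd (−1.31), Atp5g3 (−1.21), Hcn2 (−1.17), Clic5 (−1.09) and Rfx4 (−1.06), given with their log2 changes in rat. The Tpi1 value is uncertain, since near-identical copies can take its reads. Ptprh and Rfx4 rest on few counts. Ptprh had 0.571 ± 0.291 CPM (SD, n = 3) in knockdown cells with 915 and 2.74 ± 0.765 CPM in scramble cells with 915. Rfx4 had 1.80 ± 0.415 CPM in knockdown cells with 915 and 3.74 ± 0.104 CPM in scramble cells with 915. Of the named genes that fell, 69 had a promoter in the table and 2 of these held the element. Their promoters are printed with the element in capitals, since they show where the letters stand relative to the start site of a gene of ATP synthesis (Atp5g3, chr2:73911277-73911576, minus strand, element 52 bases before the start) and of a pacemaker channel (Hcn2, chr10:79716384-79716683, plus strand, element 168 bases before the start). In both, the element TCAAGGTCA is read on the strand opposite to the gene and so appears as its reverse complement.
Atp5g3: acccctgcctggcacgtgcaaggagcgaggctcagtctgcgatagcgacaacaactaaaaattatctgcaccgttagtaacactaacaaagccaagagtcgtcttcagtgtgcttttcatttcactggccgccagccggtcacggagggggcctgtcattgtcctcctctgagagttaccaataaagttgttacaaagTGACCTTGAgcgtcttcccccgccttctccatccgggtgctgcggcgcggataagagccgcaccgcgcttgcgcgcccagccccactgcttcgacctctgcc
Hcn2: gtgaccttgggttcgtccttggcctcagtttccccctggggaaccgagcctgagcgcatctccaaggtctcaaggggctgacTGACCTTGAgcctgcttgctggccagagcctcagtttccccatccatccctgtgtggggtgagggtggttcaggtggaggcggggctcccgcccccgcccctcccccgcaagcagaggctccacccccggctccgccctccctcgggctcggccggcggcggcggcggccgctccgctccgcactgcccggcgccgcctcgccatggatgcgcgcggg

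Beyond the receptors, the largest falls were larger than the largest rises. Chosen by size among genes with at least 5 CPM on average and groups that did not overlap, the 8 largest falls included Trim50 (ENSRNOG00000022483, chromosome 12, 24348321 to 24365324 on the minus strand), a ubiquitin ligase gene. It had 1.57, 1.36 and 1.90 CPM in knockdown cells with 915, against 70.3, 68.8 and 71.9 CPM in scramble cells with 915, a change of −5.44 (SE 0.16, adjusted p = 5.60e-20). Fa2h, which encodes fatty acid 2-hydroxylase, had 0.236, 0.844 and 0.444 CPM in knockdown cells with 915, against 10.9, 10.4 and 12.3 CPM in scramble cells with 915. Gnb3, a beta subunit of heterotrimeric G proteins, had 1.81, 3.44 and 4.25 CPM in knockdown cells with 915, against 58.9, 60.8 and 71.9 CPM in scramble cells with 915. Fa2h changed by −4.41 (SE 0.32) and Gnb3 by −4.30 (SE 0.21). The proton pump subunit gene Atp4a changed by −3.88 (SE 0.33) and Tmem179 by −3.84 (SE 0.11). LOC691485, for which the files give no function, changed by −4.65 (SE 0.24). On chromosome 6 it ends at 137071722, and Tmem179 runs from 137073685 on the opposite strand. Whether the falls of these neighbours are separate was not tested. Perm1 and Esrra complete the 8.

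The 8 largest rises stayed at or below a log2 change of 2.06. Cxcr4, the receptor of the chemokine CXCL12, had 68.3, 63.9 and 63.3 CPM in knockdown cells with 915, against 14.5, 18.2 and 14.1 CPM in scramble cells with 915, a change of 2.06 (SE 0.09, adjusted p = 2.66e-15). Mmp12, a macrophage metalloelastase, had 40.8, 47.4 and 32.2 CPM in knockdown cells with 915, against 9.05, 10.2 and 11.4 CPM in scramble cells with 915. Mpeg1 changed by 1.95 (SE 0.20) and Lilrb4 by 1.70 (SE 0.23), both known from macrophages and other myeloid cells and both at no more than 9.44 CPM in any of the 6 libraries. The gene annotation gives this Mpeg1 entry as a pseudogene. Mx1, an interferon-induced antiviral GTPase, had 113, 106 and 97.0 CPM in knockdown cells with 915, against 31.3, 38.8 and 19.3 CPM in scramble cells with 915. Its change of 1.83 (SE 0.49, adjusted p = 0.02) no longer passed without knockdown replicate 1 or 2 or without scramble replicate 1 or 3 (adjusted p 0.0520 to 0.0751). Fam181b changed by 1.72 (SE 0.19), the predicted gene RGD1310110 by 1.68 (SE 0.11) and AABR07027496.1, which the table lists as a pseudogene, by 1.96 (SE 0.20).

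**Figure D2:**
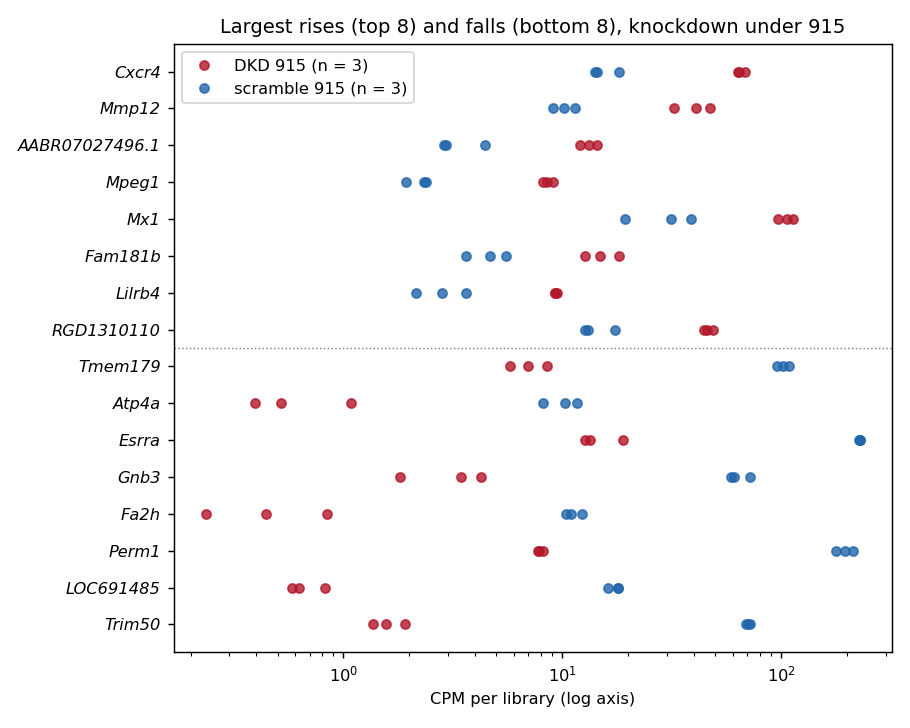
CPM on a log axis for the 8 genes with the largest rise (above the dotted line) and the 8 with the largest fall (below it), with each of the 3 libraries of knockdown cells (DKD) and of scramble cells with 915 as a point. The falls span from 3.84 (Tmem179) to 5.44 (Trim50) on the log2 scale, and the groups of every gene shown are apart because separation was part of the rule that chose them.

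Genes that bring fatty acids into the cell and into the mitochondrion fell, and most of the oxidation spiral fell with them. Of 11 uptake and activation genes 6 fell and 1 rose (median log2 change −0.40), of 8 carnitine shuttle genes 7 fell and 1 rose (median −0.63), and of 17 beta-oxidation genes 15 fell and none rose (median −0.90). Fabp3, the fatty acid carrier of heart muscle, had 90.0, 97.2 and 125 CPM in knockdown cells with 915, against 1021, 1099 and 1147 CPM in scramble cells with 915, a change of −3.39 (SE 0.11). Acsl1, which activates long-chain fatty acids to acyl-CoA, had 177, 150.1 and 177 CPM in knockdown cells with 915, against 474, 489.5 and 501 CPM in scramble cells with 915, a change of −1.54 (SE 0.06). The groups did not overlap for either gene. Got2, which also serves as a fatty acid binding protein of the plasma membrane, changed by −0.96 (SE 0.05). The members that rose were Acsl5 (0.54, SE 0.05), another acyl-CoA synthetase, and Slc22a5 (0.30, SE 0.09), the carnitine importer, named after their values were seen; the rise of Slc22a5 did not pass without knockdown replicate 1 or scramble replicate 3, and 2 uptake genes rose without knockdown replicate 3.

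Cpt1b, the muscle-type enzyme that commits fatty acids to oxidation, had 173, 151 and 199 CPM in knockdown cells with 915, against 465, 463 and 475 CPM in scramble cells with 915, a change of −1.42 (SE 0.07, adjusted p = 2.96e-11). Cpt2, its partner on the inner membrane, changed by −1.32 (SE 0.06) and Crat, carnitine acetyltransferase, by −0.79 (SE 0.06). Acadm, the medium-chain acyl-CoA dehydrogenase, had 65.3, 58.3 and 74.0 CPM in knockdown cells with 915, against 194, 201 and 201 CPM in scramble cells with 915, a change of −1.59 (SE 0.07). Acadvl, the very-long-chain dehydrogenase, changed by −0.99 (SE 0.05) and Hadhb, the beta subunit of the trifunctional protein, by −0.97 (SE 0.05). The 2 members of beta-oxidation that did not pass were Decr1 (0.08, SE 0.07) and Ech1 (0.11, SE 0.06), both auxiliary enzymes for unsaturated fatty acids.

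Targets of the PPAR receptors and proteins of the lipid droplet moved in both directions. Of 18 members 5 fell and 5 rose (median −0.07). Angptl4, a secreted inhibitor of lipoprotein lipase and a classical PPAR target, had 471, 483 and 482 CPM in knockdown cells with 915, against 241, 239.7 and 211 CPM in scramble cells with 915, a change of 1.05 (SE 0.05, adjusted p = 2.74e-14). Lipe, hormone-sensitive lipase, had 29.7, 27.6 and 32.5 CPM in knockdown cells with 915, against 11.2, 13.2 and 10.4 CPM in scramble cells with 915, a change of 1.37 (SE 0.09). The members that rose also included, named after their values were seen, Ucp2 (0.67) and Dgat2 (0.40). Ppara itself, the PPAR of fatty acid oxidation, had 10.5, 9.03 and 10.6 CPM in knockdown cells with 915, against 32.3, 33.6 and 35.1 CPM in scramble cells with 915, a change of −1.75 (SE 0.11). The other members that fell were Plin5 (−2.44), Cidea (−1.04), Plin4 (−0.70) and Plin3 (−0.39), proteins of the lipid droplet surface. Pdk4, the kinase that shuts pyruvate dehydrogenase, did not pass: it had 76.4, 64.4 and 75.0 CPM in knockdown cells with 915 and 79.9, 82.8 and 69.7 CPM in scramble cells with 915, overlapping groups with a change of −0.11 (SE 0.09, adjusted p = 0.4).

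The TCA cycle with pyruvate dehydrogenase had 23 of 26 members lower and 1 higher, with a median log2 change of −0.91. Idh2, the mitochondrial NADP-dependent isocitrate dehydrogenase, had 141, 138 and 159 CPM in knockdown cells with 915, against 585, 611 and 629 CPM in scramble cells with 915, a change of −2.06 (SE 0.05, adjusted p = 2.97e-19). Dlst, a subunit of the 2-oxoglutarate dehydrogenase complex, changed by −1.25 (SE 0.05). The single member that rose was Pdk3 (0.45, SE 0.12), a pyruvate dehydrogenase kinase, and Pdp2 (−0.40) and Pc (−0.14) did not pass.

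Genes of the respiratory chain and of ATP synthase were mostly lower. Among nuclear genes 30 of 31 members of complex I fell (median −0.66), as did 24 of 27 members of complexes II to IV with cytochrome c (median −0.69) and 15 of 16 members of ATP synthase (median −0.72). No member of complex I or ATP synthase rose. Cycs, which encodes cytochrome c, had 89.8, 98.1 and 102 CPM in knockdown cells with 915, against 281, 277 and 306 CPM in scramble cells with 915, a change of −1.58 (SE 0.06, adjusted p = 2.70e-16). Ndufs1, the largest subunit of complex I, had 118, 111 and 126 CPM in knockdown cells with 915, against 262, 259 and 279 CPM in scramble cells with 915, a change of −1.17 (SE 0.06). Atp5a1, the alpha subunit of ATP synthase, had 547, 493 and 581 CPM in knockdown cells with 915, against 1276, 1299 and 1334 CPM in scramble cells with 915. In none of these 3 genes did the groups overlap. Atp5a1 changed by −1.27 (SE 0.06), Atp5c1 by −1.05 (SE 0.05) and Atp5g3, whose mouse promoter is printed above, by −1.21 (SE 0.06). Sdha, the flavoprotein of complex II, changed by −1.25 (SE 0.05) and Cox5a of complex IV by −1.25 (SE 0.06). Ndufv2 of complex I changed by −0.98 (SE 0.06). The single member that rose was Cyct (1.42, SE 0.34), the testis form of cytochrome c, with a mean of 3.58 ± 0.581 CPM (SD, n = 3) in knockdown cells with 915 and 1.32 ± 0.492 CPM in scramble cells with 915.

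Transcripts of the mitochondrial genome fell as well. All 13 passed, with a median log2 change of −0.51 and a range from −0.98 to −0.26. Mt-cytb, the cytochrome b of complex III, had 5442, 4680.2 and 5036 CPM in knockdown cells with 915, against 7759.7, 7708 and 7981 CPM in scramble cells with 915, a change of −0.63 (SE 0.07). Mt-nd6, the complex I subunit encoded on the light strand, changed by −0.61 (SE 0.08) and Mt-co2 of complex IV by −0.44 (SE 0.07). As a share of all counts the mitochondrial genome gave 6.39% ± 0.451 (SD, n = 3) in knockdown cells with 915, against 7.65% ± 0.133 in scramble cells with 915. Poly(A) selection captures mitochondrial messages only in part, so these levels are not comparable with those of nuclear genes.

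Genes of the machinery that builds and maintains the organelle were mostly lower as well. Of 73 mitochondrial ribosomal protein genes 54 fell and 1 rose (median −0.37), the exception being Mrps6 (0.62, SE 0.08), and 2 rose without knockdown replicate 1. Mrpl15 had 61.5, 59.2 and 66.5 CPM in knockdown cells with 915, against 123, 124 and 121 CPM in scramble cells with 915, and changed by −0.97 (SE 0.06). Mrps36, now assigned to the 2-oxoglutarate dehydrogenase complex as well, changed by −1.31 (SE 0.12) and Mrpl12 by −0.67 (SE 0.07). Of 27 genes for import, chaperones and proteases 24 fell and none rose (median −0.47), among them the chaperonin Hspd1 at −0.93 (SE 0.05), the import motor Hspa9 at −0.76 (SE 0.05) and the protease subunit Afg3l2 at −0.80 (SE 0.05). The list of biogenesis, dynamics and antioxidant genes had 15 falls and no rise among 22 members. Nnt, the transhydrogenase that feeds the NADPH pool, had 215, 173 and 212 CPM in knockdown cells with 915, against 582, 566 and 634 CPM in scramble cells with 915, and changed by −1.57 (SE 0.07). The pore regulator Ppif changed by −1.47 (SE 0.08) and the outer membrane channel Vdac1 by −1.04 (SE 0.06). Of 22 mitochondrial carriers 13 fell and 2 rose. Slc25a30 changed by −2.61 (SE 0.07), the adenine nucleotide translocase Slc25a5 by −1.48 (SE 0.05) and the phosphate carrier Slc25a3 by −1.21 (SE 0.05), while Slc25a42 (0.27) and Slc25a25 (0.44), named after their values were seen, rose.

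Genes for the use of fuels other than fatty acids mostly changed in the same direction. Of 25 genes of ketone and branched-chain amino acid oxidation 23 fell and 1, Bcat1 (0.25), rose (median −0.51). Oxct1, the enzyme that lets muscle burn ketone bodies, had 179, 161 and 160.1 CPM in knockdown cells with 915, against 432, 403 and 452 CPM in scramble cells with 915, a change of −1.36 (SE 0.05, adjusted p = 4.84e-16). Acat1 changed by −1.16 (SE 0.07) and Ivd of leucine breakdown by −1.02 (SE 0.07). Of 27 genes of glycolysis and glucose uptake 21 fell and 2 rose (median −0.53). Hk2, the hexokinase of muscle, had 96.4, 99.7 and 101 CPM in knockdown cells with 915, against 190.4, 185 and 207 CPM in scramble cells with 915, a change of −0.97 (SE 0.05). The glycogen branching enzyme Gbe1 changed by −1.43 (SE 0.06) and Ldhb, the lactate dehydrogenase of heart, by −1.01 (SE 0.06). The 2 that rose were Aldoc (1.10, SE 0.12), an aldolase best known from brain, and Pfkfb3 (0.37, SE 0.07), which makes the activator of phosphofructokinase.

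Genes that serve the stores of oxygen and high-energy phosphate mostly fell, some of them strongly. Mb, which encodes myoglobin, had 58.4, 57.7 and 67.6 CPM in knockdown cells with 915, against 439, 486 and 418 CPM in scramble cells with 915, a change of −2.87 (SE 0.11). Of the 10 members of this group 7 fell and 1, the brain-type creatine kinase Ckb (0.33), rose. Ckm, the muscle creatine kinase, had 44.0, 52.6 and 60.1 CPM in knockdown cells with 915, against 199, 202 and 209 CPM in scramble cells with 915, a change of −1.95 (SE 0.08). The creatine transporter Slc6a8 changed by −1.35 (SE 0.05) and the adenylate kinase Ak1 by −1.26 (SE 0.07).

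**Figure D3:**
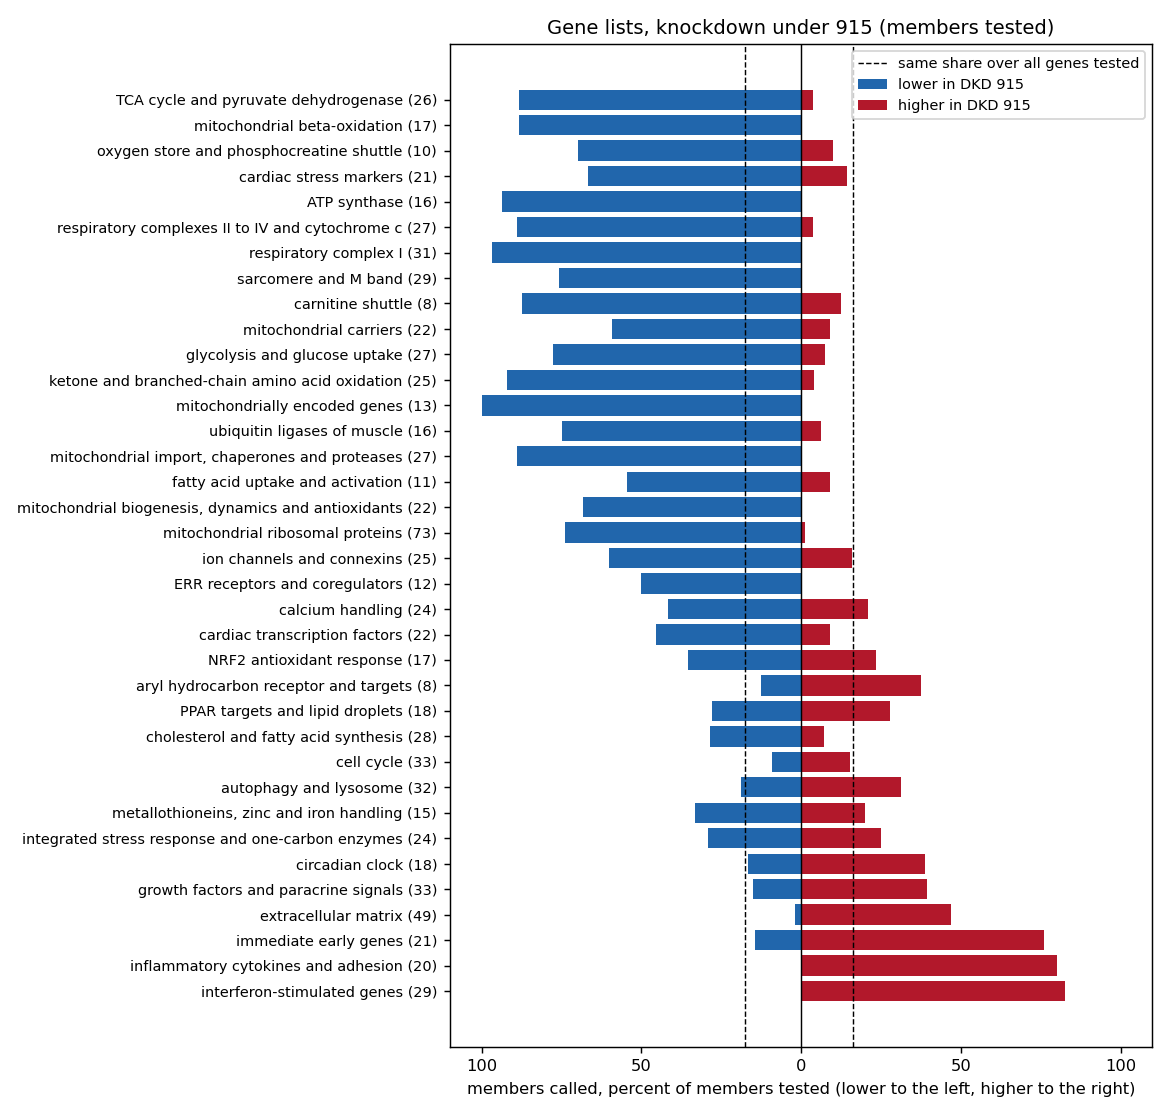
Percent of the tested members of 36 gene lists that fell (bars to the left) or rose (bars to the right) in knockdown cells over scramble cells with 915, ordered by the median log2 change; the number tested stands behind each name and dashed lines mark 17.7% lower and 16.2% higher, the shares over all genes tested. Lists of the TCA cycle, beta-oxidation and respiratory chain run far to the left, and inflammatory and interferon-stimulated genes have no bar to the left.

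Genes of the contractile apparatus fell unevenly. Of 29 sarcomere and M band genes 22 fell and none rose (median −0.64), while 1 rose without knockdown replicate 2. Myom2, a cross-linker of the M band, had 40.7, 35.7 and 43.8 CPM in knockdown cells with 915, against 434, 484 and 483 CPM in scramble cells with 915, a change of −3.54 (SE 0.07, adjusted p = 1.71e-21). Myh6, the fast alpha myosin heavy chain of the heart, had 197, 177 and 257 CPM in knockdown cells with 915, against 1335, 1213 and 1455 CPM in scramble cells with 915. Myh7, the slow beta chain, had 445, 483 and 674 CPM in knockdown cells with 915, against 2511, 2771 and 2568 CPM in scramble cells with 915. Both heavy chains fell, Myh6 by 2.67 (SE 0.12) and Myh7 by 2.29 (SE 0.13) on the log2 scale. Reads of the neighbouring and similar Myh6 and Myh7 genes may be shared in part, so their separate sizes are less certain than the fall of both. Actc1, cardiac alpha actin, had 3046, 2605 and 3366 CPM in knockdown cells with 915, against 9142, 8816 and 9068 CPM in scramble cells with 915, a change of −1.58 (SE 0.07), and Mybpc3, cardiac myosin binding protein C, changed by −1.65 (SE 0.08). Tnni3, the adult troponin I, fell by 3.08 (SE 0.14), whereas its fetal counterpart Tnni1 did not pass at 0.01 (SE 0.08). This pair was named after its values were seen. The atrial light chains Myl4 (0.02) and Myl7 (0.16), also named after their values were seen, did not pass.

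Genes of calcium handling and membrane currents fell more often than they rose. The shares that rose were near the 16.2% over all genes tested. Of 24 calcium handling genes 10 fell and 5 rose (median −0.23). Atp2a2, which pumps calcium back into the sarcoplasmic reticulum, had 1502, 1259 and 1490.1 CPM in knockdown cells with 915, against 3101, 3251 and 3354 CPM in scramble cells with 915, a change of −1.19 (SE 0.06). Sarcalumenin, encoded by Srl, changed by −1.44 (SE 0.07) and junctophilin, encoded by Jph2, by −0.86 (SE 0.05). The 5 that rose were Trdn (0.48), S100a1 (0.45), Itpr1 (0.39), Cacna1c (0.22) and Camk2d (0.16). Of 25 ion channel and connexin genes 15 fell and 4 rose (median −0.34), the rises numbering 2 without knockdown replicate 1. Scn4b, an auxiliary subunit of the cardiac sodium channel, changed by −2.01 (SE 0.15) and Cacna1h, a T-type calcium channel, by −1.18 (SE 0.06). Hcn2, the pacemaker channel whose mouse promoter is printed above, had 33.2, 34.9 and 33.4 CPM in knockdown cells with 915, against 74.8, 79.2 and 74.9 CPM in scramble cells with 915, and changed by −1.17 (SE 0.07). The 4 that rose were Gja5 (0.86), Kcnj2 (0.50), Kcnj12 (0.46) and Gjc1 (0.42).

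Genes that mark hypertrophy and stretch were mostly lower in knockdown cells with 915. Of 21 cardiac stress markers 14 fell and 3 rose (median −0.76). Nppb, which encodes the natriuretic peptide BNP (ENSRNOG00000008141, chromosome 5, 164796185 to 164797531 on the plus strand), had 186, 160.1 and 237 CPM in knockdown cells with 915, against 679, 629.6 and 717 CPM in scramble cells with 915, a change of −1.80 (SE 0.14, adjusted p = 1.28e-05). Nppa, its atrial relative, did not pass: it had 1756, 1476 and 1973 CPM in knockdown cells with 915 and 1825, 2012 and 1858 CPM in scramble cells with 915, a change of −0.13 (SE 0.12, adjusted p = 0.449). The 2 natriuretic peptide genes thus differed in outcome, although the difference between them was not tested. Rcan1, a target and inhibitor of calcineurin, had 258, 244 and 288 CPM in knockdown cells with 915, against 901, 882 and 898 CPM in scramble cells with 915, a change of −1.76 (SE 0.06). The small heat shock protein gene Hspb7 changed by −1.67 (SE 0.07) and Ankrd1, a stretch-responsive nuclear and sarcomeric protein, by −0.93 (SE 0.06). The 3 that rose were Postn (0.45), Tgfb2 (0.44) and Hspb1 (0.44). Of 22 cardiac transcription factors and regulators 10 fell and 2 rose, with Gata4 at −0.59 (SE 0.05), the splicing regulator Rbm20 at −0.77 (SE 0.07) and Srf at −0.55 (SE 0.06). The 2 that rose were Foxo1 (0.23) and Mef2d (0.17); neither rose without knockdown replicate 1 or 3 or scramble replicate 3, and 1 rose without scramble replicate 1.

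Inflammatory transcripts rose together. Of 20 cytokine and adhesion genes 16 rose and none fell (median 0.77). Cxcl1, a neutrophil chemokine, had 31.1, 31.0 and 32.6 CPM in knockdown cells with 915, against 12.6, 15.0 and 13.2 CPM in scramble cells with 915, a change of 1.21 (SE 0.11). Icam1, an adhesion molecule, had 220.4, 232 and 233 CPM in knockdown cells with 915, against 154, 157 and 138 CPM in scramble cells with 915, a change of 0.61 (SE 0.05), and Nfkbia, an inhibitor and target of NF-kappa B, changed by 0.68 (SE 0.06). The groups did not overlap in Cxcl1 or Icam1. Of 21 immediate early genes 16 rose and 3 fell (median 0.38). Egr1 had 53.5, 59.8 and 53.1 CPM in knockdown cells with 915, against 22.9, 28.7 and 26.8 CPM in scramble cells with 915, a change of 1.09 (SE 0.09), and the phosphatase gene Dusp1 changed by 0.57 (SE 0.06) and Btg2 by 0.50 (SE 0.06). The 3 that fell were Myc (−0.34), Nr4a1 (−0.20) and Jund (−0.13), of which 1 still passed without knockdown replicate 2 and 1 without scramble replicate 2.

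Interferon-stimulated genes rose as a group, with a wide spread between the scramble libraries. Of 29 members 24 rose and none fell (median 0.88), and 15 rose without scramble replicate 3. Summed over the 29 genes the level was 3585, 3605 and 3349 CPM in the 3 libraries of knockdown cells with 915, against 1991, 2349 and 1791 CPM in scramble cells with 915. With vehicle the sum was 5206, 5862 and 6168 CPM in knockdown cells and 4708, 6699 and 3950.2 CPM in scramble cells, so the scramble libraries with vehicle also differed widely among themselves. Bst2, which encodes tetherin, had 43.9, 53.0 and 52.6 CPM in knockdown cells with 915, against 19.7, 28.7 and 21.0 CPM in scramble cells with 915, a change of 1.11 (SE 0.13). Rtp4 changed by 0.99 (SE 0.16) and Irf9, a subunit of the interferon-activated factor, by 0.39 (SE 0.07), while Stat2 (0.25, adjusted p = 0.181), named after its value was seen, did not pass.

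Extracellular matrix genes also tended upward. Of 49 members 23 rose and 1, Fbn2 (−0.35), fell (median 0.27), and Fbn2 did not pass without knockdown replicate 3 or scramble replicate 1 or 3. Timp1, an inhibitor of matrix proteases, had 135, 138 and 146 CPM in knockdown cells with 915, against 76.7, 79.1 and 72.2 CPM in scramble cells with 915, a change of 0.88 (SE 0.06). The basement membrane collagen gene Col4a4 changed by 1.15 (SE 0.07) and Col18a1 by 0.59 (SE 0.06). Of 33 growth factor genes 13 rose and 5 fell, with 8 rising without knockdown replicate 2. Vegfa, the main angiogenic factor, had 475, 459 and 547 CPM in knockdown cells with 915, against 1023, 1039.9 and 1050.2 CPM in scramble cells with 915, a change of −1.07 (SE 0.06). Its relative Vegfb changed by −0.84 (SE 0.06), and Tgfb2, a profibrotic factor, by 0.44 (SE 0.06). The other 3 that fell, named after their values were seen, were Bmp10 (−0.96), Adm (−0.41) and Pdgfa (−0.18).

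Protein turnover, iron and redox genes gave smaller groups. Of 16 ubiquitin ligases of muscle 12 fell and 1, Mdm2 (0.22), rose, among them Fbxo32, the atrophy ligase atrogin-1, at −1.39 (SE 0.06) and Klhl31 at −0.59 (SE 0.07). Of 32 genes of autophagy and the lysosome 10 rose (6 without scramble replicate 3) and 6 fell (median 0.04). The share that fell was near the 17.7% over all genes tested. The 3 members with the lowest adjusted p were all among the falls. The mitophagy kinase gene Pink1 changed by −1.01 (SE 0.06), Bnip3 by −0.62 (SE 0.07) and the cargo receptor Sqstm1 by −0.47 (SE 0.05). Hamp, which encodes the iron hormone hepcidin, had 23.3, 22.7 and 26.0 CPM in knockdown cells with 915, against 120.3, 138 and 116 CPM in scramble cells with 915, a change of −2.38 (SE 0.10), and the transferrin receptor Tfrc changed by −1.38 (SE 0.06). Lcn2, an iron-binding acute phase protein, rose by 0.81 (SE 0.07), and this list of 15 had 3 rises and 5 falls in all. Of 17 NRF2 targets 4 rose (2 without scramble replicate 1 or 2) and 6 fell, with Txnrd1 at −1.02 (SE 0.05), Gsta4 at −1.35 (SE 0.09) and Srxn1 at −0.76 (SE 0.06). The integrated stress response had 6 rises (3 without scramble replicate 1) and 7 falls among 24 genes (median 0.13). Its 3 members with the lowest adjusted p also fell, Ddit3 (CHOP) at −0.57 (SE 0.06), Vldlr at −0.40 (SE 0.05) and Slc7a1 at −0.36 (SE 0.06).

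The remaining lists held both rises and falls, some of them at no more than the background of 16.2% higher and 17.7% lower. Cholesterol and fatty acid synthesis had 2 rises and 8 falls among 28 genes, with Idi1 at −0.84 (SE 0.12) and Acly at −0.34 (SE 0.05). The 2 that rose were Fads1 (0.47) and Ebp (0.42), of which none rose without scramble replicate 3 and 1 rose when any 1 of 8 other libraries was left out. The cell cycle had 5 rises and 3 falls among 33 genes, both shares below the background. The inhibitor genes Cdkn1c and Cdkn1b changed by 0.47 (SE 0.07) and 0.30 (SE 0.06), and the cyclin gene Ccnd2 by −0.20 (SE 0.06). The rises of this list numbered 3 without knockdown replicate 1 or 2 or scramble replicate 2, and its falls 1 without scramble replicate 2. The circadian clock had 7 rises and 3 falls (1 without scramble replicate 3) among 18 genes, with Per1 at 0.61 (SE 0.08), Bhlhe41 at 0.61 (SE 0.08) and Cry1 at −0.38 (SE 0.08). Ahr, the dioxin receptor, rose by 0.60 (SE 0.10), its target Cyp1b1 by 0.37 (SE 0.09), and Nqo1 changed by −0.26 (SE 0.07), in a list of 8 with 3 rises and 1 fall (2 falls without scramble replicate 1 or 3).

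Marker genes of the cell types that the culture could hold moved beside these groups. All 11 tested cardiomyocyte markers fell (median −1.35), and their summed level was 6423 to 8140 CPM in knockdown cells with 915, against 13534 to 14430 CPM in scramble cells with 915. They fell unevenly: Tnnt2 changed by −0.22 and Actn2 by −0.32, against −2.01 for Ldb3 and −1.20 for Cmya5. Most of these markers are also genes of the sarcomere list. Of 11 fibroblast markers 5 rose, and their sum was 8984 to 11070 CPM in knockdown cells with 915, against 7645 to 8364 CPM in scramble cells with 915. Decorin (Dcn) changed by 0.70 (SE 0.08), vimentin (Vim) by 0.37 (SE 0.06) and lumican (Lum) by 0.59 (SE 0.12). Of 9 smooth muscle and pericyte markers 6 rose, with sums of 2854 to 3355 CPM in knockdown cells with 915, against 2236 to 2707 CPM in scramble cells with 915, and Cspg4 at 0.46, Cnn1 at 0.49 and Acta2 at 0.44. In bulk libraries fewer cells of a type and less RNA per cell cannot be told apart.

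Markers of other cell types were mostly higher or not called. Of 8 leukocyte markers 5 rose, with sums of 78.1 to 102 CPM in knockdown cells with 915, against 48.1 to 50.6 CPM in scramble cells with 915. Cd68 changed by 1.05 (SE 0.14), Lyz2 by 1.12 (SE 0.14) and C1qa by 1.72 (SE 0.55) at 1.14 ± 0.245 CPM (SD, n = 3) in knockdown cells with 915 and 0.336 ± 0.119 CPM in scramble cells with 915. The count of leukocyte markers that rose was 2 or 3 when knockdown replicate 2 with 915 or any 1 scramble library with 915 was left out. It was also 3 with a minimum count of 50, where 5 of the markers were tested. Adgre1, C1qb and C1qc were too low to be tested. Of 8 endothelial markers 3 rose, Kdr (0.85), Egfl7 (0.47) and Tie1 (0.63), and 1 rose without knockdown replicate 2 or without scramble replicate 3. Of 8 epicardial and mesothelial markers 4 rose, among them Krt19 (0.74), Krt8 (0.32) and Aldh1a2 (0.37). Of 6 neuron and Schwann cell markers 1 rose (median −0.04), with sums of 429 to 469 CPM in knockdown cells with 915, against 252 to 289 CPM in scramble cells with 915. The sums were mostly Ncam1, a neural adhesion molecule gene, which rose by 0.83 and had 443, 397 and 430.2 CPM in knockdown cells with 915, against 233, 260.4 and 223 CPM in scramble cells with 915. The single red blood cell marker tested, Slc4a1, did not pass (−0.30). The parts of these marker changes in the rises of matrix, inflammatory and interferon-stimulated genes and in the falls of sarcomere genes were not tested.

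The same knockdown without the agonist, knockdown cells with vehicle over scramble cells with vehicle, shares no library with the comparison above. With vehicle 3099 genes (20.4%) changed, 1176 (7.75%) higher and 1923 (12.7%) lower in knockdown cells. Of the 2691 genes that fell with 915, 1555 also fell with vehicle, which is 57.8% of the falls with 915 and 80.9% of those with vehicle. Of the 2461 genes that rose with 915, 799 also rose with vehicle, which is 32.5% of the rises with 915 and 67.9% of those with vehicle. Across the 15181 genes, which are not independent, Pearson's r between the 2 effects was 0.527 and Spearman's rho 0.556. Among the 2354 genes called in both with the same sign, 1683 had the larger change with 915, and the median ratio of the log2 changes was 1.21.

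Tested directly as a difference between the effects, 566 genes (3.73%) responded differently to the knockdown with 915 than with vehicle. Of these 282 fell with 915 and had the more negative effect with 915, and 220 rose with 915 and had the more positive effect with 915. A further 9 fell with 915 by less than with vehicle, 2 rose by less, and 53 were not called with 915. The number of genes called for the difference was 365 without knockdown replicate 2 with 915, 259 without scramble replicate 3 with 915, 305 without knockdown replicate 1 with vehicle, 359 without knockdown replicate 3 with vehicle and 321 without scramble replicate 2 with vehicle. In 23 genes the knockdown effect was called with opposite signs with 915 and with vehicle, and all 23 were called for the difference. With opposite signs the difference is larger than either effect, so these calls are no separate evidence.

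**Figure D4:**
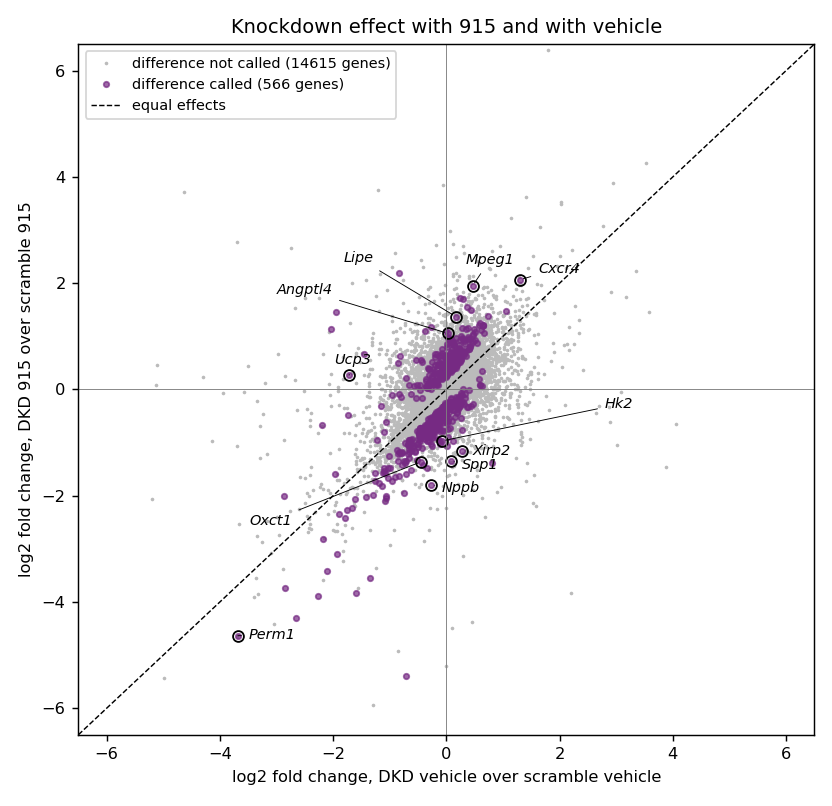
Log2 fold change of knockdown over scramble cells with 915 (vertical axis) against the same with vehicle (horizontal axis) for 15181 genes; the 566 genes called for the difference between the effects are purple and the dashed line marks equal effects. Most genes lie close to 0 on both axes, with a median absolute change of 0.235 with 915 and 0.171 with vehicle. The 2 effects correlate at r = 0.527. Nppb, Xirp2 and Spp1 lie low with 915 and, on the range of the axes, close to 0 with vehicle, and Ucp3 lies low with vehicle.

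Many stress markers and part of the glucose and sarcomere genes had a more negative knockdown effect with 915. Of the 21 cardiac stress markers 11 (against a background of 1.99%) had the more negative effect with 915 and none the more positive one. Nppb had 108, 125 and 123 CPM in knockdown cells with vehicle and 150.1, 125 and 153 CPM in scramble cells with vehicle, a change of −0.27 that did not pass, and the difference of the effects was −1.53 (SE 0.20, adjusted p = 0.00527). Xirp2, an actin-binding protein of the intercalated disc, had 219, 183 and 235 CPM in knockdown cells with 915, against 479.6, 458 and 483 CPM in scramble cells with 915, a change of −1.16. With vehicle it had 167, 152 and 161 CPM in knockdown cells, against 129.5, 129.8 and 135 CPM in scramble cells, a change of 0.28, so the signs were opposite and the difference was −1.44 (SE 0.09). Spp1, which encodes osteopontin, had 95.1, 111 and 79.9 CPM in knockdown cells with 915, against 244, 247 and 241 CPM in scramble cells with 915, and a difference of −1.43 (SE 0.16). Among 27 glycolysis genes 8 had the more negative effect with 915, among them Hk2 (−0.89, SE 0.08), which changed by −0.08 with vehicle and did not pass there. Among 29 sarcomere genes 7 had the more negative effect with 915, such as Actc1 (−0.88, SE 0.10), and among 26 TCA cycle genes 4, such as Idh2 (−0.44, SE 0.08). Oxct1 changed by −1.36 with 915 and by −0.45 with vehicle, a difference of −0.91 (SE 0.08). The remaining large negative differences were those of Gnb3 (−1.64, SE 0.29), Nmrk2 (−1.31, SE 0.37), a nicotinamide riboside kinase of muscle, and Cdh17 (−1.19, SE 0.27).

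PPAR targets and several beta-oxidation enzymes went the other way. Of the 18 PPAR and lipid droplet genes 6 (against a background of 1.74%) had the more positive effect with 915 and none the more negative one, and of the 17 beta-oxidation genes 5 and none. The 6 lipid droplet and PPAR genes include Angptl4, Lipe, Pdk4, Ucp3 and Ucp2. Angptl4 had 698, 664 and 689 CPM in knockdown cells with vehicle and 664, 683 and 668 CPM in scramble cells with vehicle, overlapping groups with a change of 0.03, and the difference was 1.03 (SE 0.07, adjusted p = 3.21e-09). Pdk4 had 188, 163 and 166 CPM in knockdown cells with vehicle, against 359.5, 303 and 347 CPM in scramble cells with vehicle, a fall of 0.97 (SE 0.08) that was not seen with 915, and the difference was 0.86 (SE 0.12). Ucp3, a mitochondrial uncoupling protein of muscle, had 3.30, 2.14 and 1.59 CPM in knockdown cells with 915 and 1.72, 2.06 and 1.98 CPM in scramble cells with 915. With vehicle Ucp3 had 5.46, 4.16 and 6.12 CPM in knockdown cells, against 18.3, 15.8 and 17.8 CPM in scramble cells, and its difference of 1.99 (SE 0.32) had the largest positive value among the named genes. The 5 beta-oxidation genes were Acadm (0.37), Etfdh (0.28), Acaa2 (0.30), Decr1 (0.75) and Ech1 (0.44), of which Decr1 (−0.66) and Ech1 (−0.33) fell with vehicle and did not pass with 915. Other large positive differences were those of Fam181b (1.49, SE 0.27), Mpeg1 (1.49, SE 0.27), the organic cation transporter Slc22a3 (1.44, SE 0.30) and Arap3 (1.41, SE 0.33).

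The lists that rose also rose in more members with 915. Over all genes tested the share that rose was likewise larger, 16.2% with 915 and 7.75% with vehicle. The difference was called as more positive with 915 for 1.74% of the genes tested. Interferon-stimulated genes had 24 rises with 915 and 1 with vehicle (Ifit1), with medians of 0.88 and 0.19, but only Bst2 was called for the difference (1.11, SE 0.18). Inflammatory genes had 16 rises with 915 and 10 with vehicle, and 4 were called for the difference, all more positive with 915: Icam1 (0.44), Cxcl1 (0.57), Ccl7 (0.49) and Tnfaip3 (0.54). Extracellular matrix genes had 23 rises with 915 and 5 with vehicle, and 6 were called for the difference, all more positive with 915.

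The effect of 915 itself shares libraries with the knockdown effects, so its values are set beside them with no comparison. In knockdown cells 915 changed Nppb by 0.72 and in scramble cells by 2.24 on the log2 scale. For Hk2 these values were 0.35 in knockdown cells and 1.24 in scramble cells, and for Xirp2 0.41 in knockdown cells and 1.85 in scramble cells. In these 3 genes the level with 915 lay above the level with vehicle in both cell groups. For Angptl4 the values were −0.52 in knockdown cells and −1.54 in scramble cells, for Lipe −0.81 in knockdown cells and −2.02 in scramble cells, and for Pdk4 −1.26 in knockdown cells and −2.12 in scramble cells. These 3 lay below their vehicle level with 915 in both cell groups. Not every gene called for the difference moved with 915 in both. For Perm1 the values were −0.03 in knockdown cells and 0.92 in scramble cells. For Ankrd1 they were 0.04 in knockdown cells and 0.83 in scramble cells, and for Actc1 −0.11 in knockdown cells and 0.77 in scramble cells. The values of Perm1, Ankrd1 and Actc1 in knockdown cells did not pass.

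**Figure D5:**
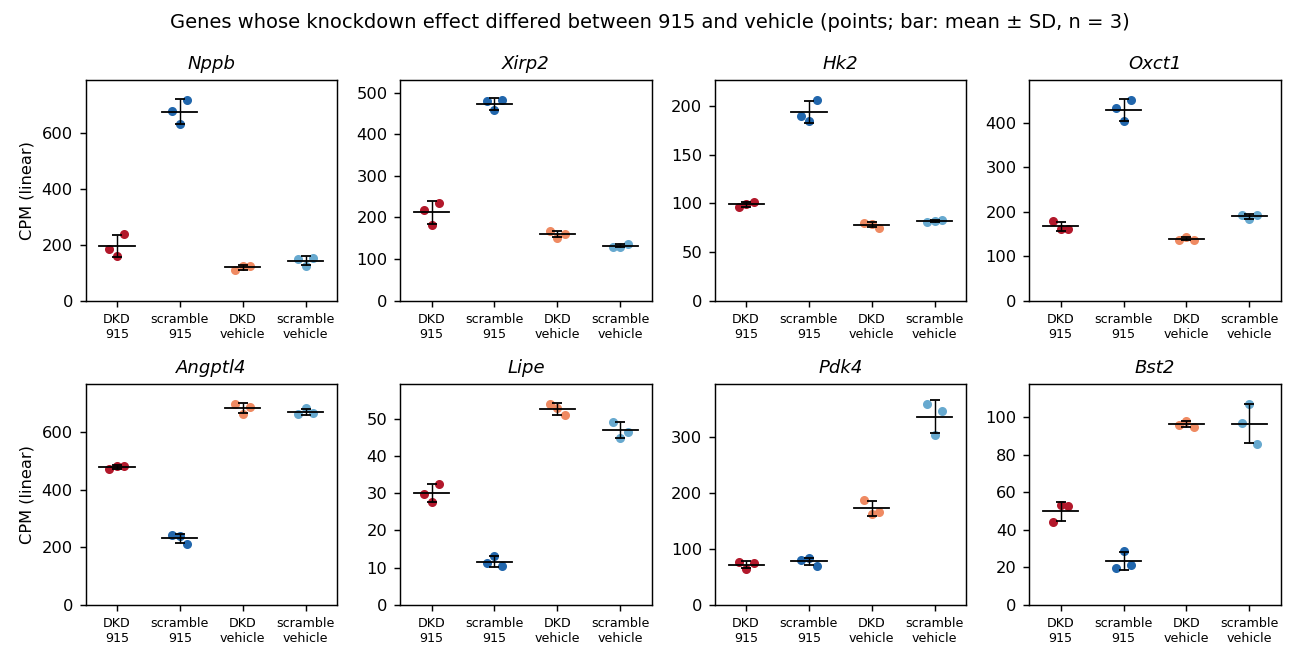
CPM (linear vertical axis) of 8 genes called for the difference between the knockdown effects, in each rat library, with knockdown cells (DKD) left of scramble cells for 915 and for vehicle; points are libraries, bars the mean ± SD of 3. Nppb, Xirp2, Hk2 and Oxct1 are highest in scramble cells with 915, while Angptl4, Lipe and Bst2 are lowest there and Pdk4 is low in both groups with 915.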

How the data were processed

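Poly(A) RNA of neonatal rat ventricular myocytes was sequenced from both ends without strand information, per the labels' protocols. The rat values are whole-number counts per gene, as deposited and per the file headers; the deposited FPKM, scaled by the authors for gene length, were used only to set the 3 receptor genes side by side. Per the submitters' processing notes reads were handled on rn6 with tools that include HISAT2 2.0.5 and featureCounts 1.5.0-p3; StringTie 1.3.3b and DESeq2 1.20.0 are also listed. The authors' fold changes and the mouse data were not used.

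The 12 rat libraries were fitted as 4 groups of 3 with edgeR 4.0.16 in R 4.3.3 (TMM scaling, filterByExpr with a minimum count of 10, robust quasi-likelihood test), with Benjamini-Hochberg adjustment over the 15181 genes tested at 0.05. The difference between the knockdown effects with 915 and with vehicle was a contrast in the same fit. TMM factors ran from 0.954 to 1.06 and the common biological coefficient of variation was 0.104. The fit was also run on simulated counts with far fewer changed genes than were called here. Its error rates under changes this broad were therefore not tested. Without strand, reads of a gene and an overlapping antisense gene cannot be told apart, and featureCounts can split reads of near-identical copies.

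The 44 gene lists, the members and the tests were chosen with earlier results of these data known, so a list's direction is not independent evidence. Lists are described by counts and medians, with no set test. Named genes were the 8 largest rises and falls among called genes with at least 5 CPM on average and no overlap of the groups, from each list with at least 3 called members the up to 3 of lowest adjusted p, a fixed set of 14 and the 6 largest differences in each direction; a few of them are not reported here. Promoter sequences are RefSeq's, mouse build GRCm38.p6, matched by symbol. Alternatives were RLE size factors, no filter, a minimum count of 50, DESeq2 1.42.0 (Wald), a fit of the compared groups alone, a replicate block and each library left out. Replicates of a group differed by more than sampling noise (mean chi-square per gene 4.36 to 8.76).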

Additional observations from a re-analysis of the deposited data

Results flagged for a closer look

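Of the 155 named genes 61 responded differently to the knockdown with 915 than with vehicle, 42 of them more negative with 915 and 19 more positive, each by an adjusted p under 0.05 for the difference in edgeR's quasi-likelihood test. The values of 59 of them follow. Some lay close to the threshold in that test, such as Ldhb (adjusted p = 0.0497), Acadm (0.0484), Dlst (0.0474) and Srf (0.0457). Differences of single genes were not followed under the alternative settings. Values are the log2 effect with 915 minus the log2 effect with vehicle.

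Among receptors and coregulators the difference was −0.95 for Perm1, −0.88 for Esrrg and −0.60 for Ppargc1b. Among the largest falls and other large negative differences it was −1.64 for Gnb3, −1.62 for Atp4a, −1.31 for Nmrk2 and −1.19 for Cdh17.

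Among stress markers and muscle regulators the difference was −1.53 for Nppb, −1.44 for Xirp2, −1.43 for Spp1, −0.79 for Ankrd1, −0.65 for Hspb7, −0.57 for Rcan1, −0.61 for Klhl31, −0.38 for Gata4 and −0.30 for Srf. Among sarcomere and calcium genes it was −0.95 for Ldb3, −0.88 for Actc1, −0.75 for Mybpc3 and −0.61 for Jph2.

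Among genes of fuel use it was −0.91 for Oxct1, −0.89 for Hk2, −0.65 for Gbe1, −0.51 for Slc6a8, −0.43 for Acsl1, −0.36 for Ivd, −0.29 for Got2 and −0.28 for Ldhb. Among TCA cycle, respiratory chain and other mitochondrial genes it was −0.49 for Slc25a5, −0.45 for Nnt, −0.44 for Idh2, −0.39 for Ndufs1, −0.37 for Vdac1, −0.35 for Slc25a3, −0.31 for Cycs and −0.23 for Dlst. Among redox, stress response and autophagy genes it was −0.63 for Gsta4, −0.52 for Txnrd1, −0.46 for Srxn1, −0.32 for Ddit3 and −0.28 for Sqstm1.

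The positive differences were, among genes of lipid use, 1.99 for Ucp3, 1.20 for Lipe, 1.03 for Angptl4, 0.86 for Pdk4 and 0.37 for Acadm. Among transporters, signalling and immune genes they were 1.49 for Fam181b, 1.49 for Mpeg1, 1.44 for Slc22a3, 1.41 for Arap3, 1.11 for Bst2, 0.77 for Cxcr4, 0.59 for Egr1, 0.57 for Cxcl1 and 0.44 for Icam1. Among matrix and stromal genes they were 0.38 for Cspg4, 0.35 for Cnn1, 0.34 for Timp1 and 0.32 for Vim.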

How the results depend on the processing

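The number of genes that changed with the knockdown under 915, 5152, was 5024 by the Wald test of DESeq2 (4917 shared, 0 with the opposite sign), 5187 with RLE size factors, 5038 without a filter, 5173 with the stricter filter, 4844 from the compared groups only and 4199 to 5138 with 1 library left out. The number called for the difference of the effects, 566, ran from 259 to 677 with 1 library left out, and was 365 without knockdown replicate 2 with 915, 259 without scramble replicate 3 with 915, 305 and 359 without knockdown replicate 1 and 3 with vehicle, and 321 without scramble replicate 2 with vehicle; it was 756 by DESeq2, 726 without a filter, 607 with the stricter filter and 563 with RLE size factors. The cause was not tested. Leaving out a library leaves 2 in its group.

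No pairing by replicate number was seen. Same-numbered libraries of the compared groups correlated at −0.027, −0.025 and 0.001 in their deviations from the group means. Such values cannot tell whether same-numbered libraries came from a shared isolation. With the replicate number as a block 5031 genes were called with 915 (4964 shared), 2941 with vehicle and 542 for the difference.

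For the knockdown effect with 915, the 151 named genes called kept their direction under each of the 18 alternatives that gave them a value. Of the 151 genes, 143 stayed called under each of these, and C1qa had a value under 17. Those lost under at least 1 alternative were Aldh1a2, C1qa, Ccnd2, Cyp1b1, Egfl7, Mx1, Slc22a3 and Tie1. Of the named genes that did not pass, Ppargc1a ran from −0.12 to 0.039 with 1 library left out and Ucp3 from −0.058 to 0.49, turning sign. The median over all genes moved from 0.0281 by less than 0.1 under each scaling. The medians of 3 of 44 lists changed sign under an alternative: cell cycle, neuron and Schwann cell markers, and red blood cell markers. Genes near 1 CPM, such as C1qa and Atp4a in knockdown cells with 915, rest on few counts, and their sizes are the least certain.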
